A study of Mus musculus with 99 samples.

Results

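The genes described here encode the proteins through which opioid receptors act inside the neuron: 4 subunits of G protein-gated inwardly rectifying potassium (GIRK) channels (Kcnj3, Kcnj5, Kcnj6 and Kcnj9), 4 alpha subunits of the Gi/o class (Gnai1, Gnai2, Gnao1 and Gnaz) and both beta-arrestins (Arrb1 and Arrb2). They were chosen by name, and all 10 were found among the 55335 gene identifiers of the count files, with 1 identifier each. The libraries were made from tissue punches of juvenile wild-type C57BL/6 offspring whose dams drank fentanyl at 10 µg/ml, or water without it, from embryonic day 0 until weaning. Punches were taken from females and males in 5 regions: nucleus accumbens (NAc), prelimbic (PrL) and primary somatosensory (S1) cortex, ventrobasal thalamus (VBT), and the ventral tegmental area of the midbrain (VTA). Each of the 20 combinations of region, sex and treatment had 5 libraries, except that S1 males on water had 4 and VTA males on water had 4 after 1 library was left out. That library, VTA male water replicate 3, had counts for 6333 genes. The fentanyl and the water offspring share genotype and strain, and the labels give neither litters nor the animal behind each punch.

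An opioid receptor bound by its agonist exchanges GDP for GTP on a Gi/o alpha subunit, which then separates from the beta and gamma subunits. The freed alpha subunit of the Gi type inhibits adenylyl cyclase, while the beta-gamma pair opens GIRK channels, and the potassium current hyperpolarizes the neuron. Receptors phosphorylated by G protein-coupled receptor kinases bind beta-arrestins, which uncouple them from the G protein and carry them into the cell. GIRK channels are tetramers. Kcnj3 (GIRK1) needs a partner subunit to reach the surface, Kcnj6 (GIRK2) is its main partner in brain, Kcnj9 (GIRK3) forms mixed channels, and Kcnj5 (GIRK4) is best known from the heart. Midbrain dopamine neurons are known for channels of Kcnj6 and Kcnj9 that lack Kcnj3.

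The starts of the 4 GIRK genes are shown first, because the channel subunits differed most between regions and did not all vary in the same way. Each line gives the 250 bases before the RefSeq start site on GRCm38.p6, read 5′ to 3′ along the gene's own strand, with capitals where a searched motif matched. RefSeq's table lists 2 starts for Kcnj6, and the one nearest the GENCODE start is shown; the statements on Kcnj6 cover that window only.
Kcnj3: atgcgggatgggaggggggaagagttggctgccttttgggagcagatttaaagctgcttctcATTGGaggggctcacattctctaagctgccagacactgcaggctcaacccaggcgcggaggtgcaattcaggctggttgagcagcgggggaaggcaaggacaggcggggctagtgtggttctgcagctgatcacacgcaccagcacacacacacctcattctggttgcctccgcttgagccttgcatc
Kcnj9: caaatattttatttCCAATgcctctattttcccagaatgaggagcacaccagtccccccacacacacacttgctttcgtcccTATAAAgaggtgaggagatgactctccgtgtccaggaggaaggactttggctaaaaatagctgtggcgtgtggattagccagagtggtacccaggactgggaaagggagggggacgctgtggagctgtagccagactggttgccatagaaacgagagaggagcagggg
Kcnj6: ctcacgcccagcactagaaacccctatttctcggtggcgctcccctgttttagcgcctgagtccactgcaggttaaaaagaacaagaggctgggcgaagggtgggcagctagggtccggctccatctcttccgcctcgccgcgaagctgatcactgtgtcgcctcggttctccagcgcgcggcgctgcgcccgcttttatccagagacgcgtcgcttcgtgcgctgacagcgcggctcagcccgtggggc
Kcnj5: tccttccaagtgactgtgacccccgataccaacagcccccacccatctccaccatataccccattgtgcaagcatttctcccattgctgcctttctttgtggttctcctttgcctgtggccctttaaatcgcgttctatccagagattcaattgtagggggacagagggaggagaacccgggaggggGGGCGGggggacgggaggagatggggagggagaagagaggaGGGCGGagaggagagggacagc
They cover chr2:55435720-55435969 (plus strand), chr1:172329323-172329572 (minus), chr16:94997697-94997946 (minus) and chr9:32344345-32344594 (minus). The motifs searched on both strands were the GC box GGGCGG, the TATA box TATAAA, the CCAAT box and the cAMP response element TGACGTCA, and none of these overlaps another. Kcnj3 and Kcnj9, whose levels moved together across regions, each held 1 CCAAT match, which 33.9% of 32841 mouse promoters of this length also held. Kcnj9 held 1 TATAAA match 168 to 163 bases before the start (12.4% of promoters hold one), and Kcnj5 held 2 GGGCGG matches (32.7% hold at least 1). Kcnj6 had no match, and it had the most CG dinucleotides of these sequences, with 26 against 7, 5 and 7 in Kcnj3, Kcnj9 and Kcnj5 and a median of 6 over all promoters. The cAMP response element, which 1.55% of promoters held, was in none of the 4. A match describes these letters only.

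On GRCm38, in GENCODE M21, the GIRK genes lie at chr2:55435970-55598145 (Kcnj3), chr9:32314707-32344350 (Kcnj5), chr16:94748636-94997701 (Kcnj6) and chr1:172320501-172329318 (Kcnj9). The alpha subunit genes lie at chr5:18265135-18360355 (Gnai1), chr9:107614125-107635367 (Gnai2), chr8:93809966-93969388 (Gnao1) and chr10:74967177-75016907 (Gnaz). The arrestin genes lie at chr7:99535466-99606771 (Arrb1) and chr11:70432635-70440828 (Arrb2). Gnao1, Kcnj9 and Kcnj6 each share exon bases with an antisense gene, 284 with 4930488L21Rik, 172 with Gm36937 and 380 with Gm41505. Those genes averaged 2.31, 0.0883 and 0.118 CPM (a gene's count divided by the library's gene total, times 1000000), and whether the counting used strand is not given in the sources used here.

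The 98 libraries used held 23032078 to 52069639 counts on genes and 24079 to 27347 genes with a count. The marker score of each labelled region (mean log2(CPM + 1) of its marker genes) was higher in all of that region's libraries than in any library of another region; S1 and PrL, which share the cortex markers, were set against the other 3. Some libraries stood apart within their region. VBT male water replicate 3 and VBT female water replicate 2 had striatal marker scores of 6.52 and 5.91, against at most 5.31 in other VBT libraries, and PrL male water replicate 3 and PrL female water replicate 5 had olfactory bulb marker scores of 6.20 and 5.46, against at most 3.53 in the other PrL libraries. In bulk tissue, fewer cells of a type and less RNA per cell cannot be told apart. The p-values measure only the spread between these libraries, which may be partly technical or shared within litters.

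Among the water libraries, the GIRK subunits showed the widest differences between regions. Kcnj3 and Kcnj9 were high in thalamus and cortex and low in VTA and NAc, Kcnj6 was highest in the cortical regions, and Kcnj5 was highest in VTA. The Gi/o alpha subunits and the arrestins were spread more evenly. In a quasi-likelihood test of edgeR over the 5 regions, 10 of 10 members differed at an adjusted p under 0.05, as did 90.7% of all genes tested. Over the 10 pairs of regions, 80 of 100 member differences passed, against a background of 59.6%. All 10 members separated VTA from S1 (67.6% of all genes) and VTA from PrL (66.5%). The counts were 9 for VBT against PrL (68.4%), and 8 each for VBT against S1 (68%), VBT against NAc (67.8%) and PrL against NAc (50.3%). They were 7 each for VTA against VBT (52.5%), VTA against NAc (64.8%) and S1 against PrL (37.3%), and 6 for S1 against NAc (53.3%). The largest difference between 2 regions had a median of 2.01 on the log2 scale over the GIRK subunits (1.47 to 6.01), of 0.64 over the alpha subunits (0.45 to 0.92), and was 0.94 for Arrb1 and 0.60 for Arrb2. How many of all genes have libraries that do not overlap between regions was not counted.

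**Figure D1:**
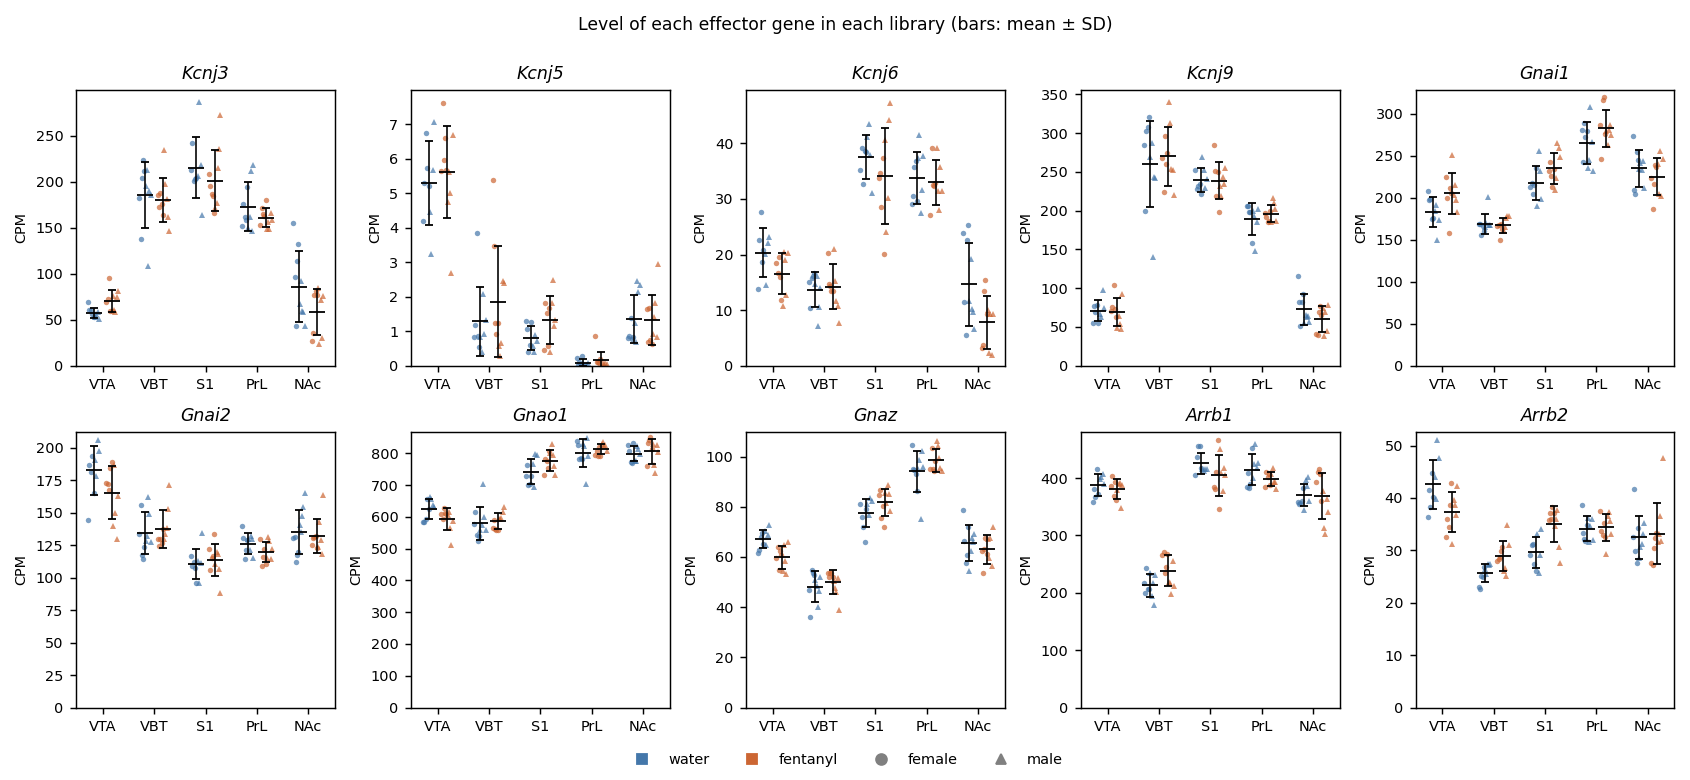
CPM of each of the 10 genes in every library used, by region (x axis), treatment (blue water, orange fentanyl) and sex (circles females, triangles males); black bars are the mean ± SD of a region and treatment. Kcnj3 and Kcnj9 stand high in VBT, S1 and PrL, Kcnj5 in VTA, and Arrb1 is lowest in VBT.

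Kcnj3, the subunit that carries much of the GIRK current in forebrain, was at 215 ± 33.5 CPM in S1 (SD, n = 9), 185 ± 35.9 in VBT (n = 10), 173 ± 26.2 in PrL (n = 10), 86.0 ± 38.6 in NAc (n = 10) and 57.4 ± 5.49 in VTA (n = 9). The lowest, median and highest VTA libraries were at 50.8, 56.4 and 68.7 CPM, and those of S1 at 164, 207 and 287, so that these regions did not overlap. S1, VBT and PrL could not be separated from one another (adjusted p 0.107 to 0.378 in edgeR), while PrL exceeded NAc by 1.14 (SE 0.15, log2, adjusted p = 3.36e-08) and NAc exceeded VTA by 0.55 (SE 0.16, adjusted p = 0.00201). The NAc libraries were the most uneven, from 42.6 to 155 CPM. Cortex markers summed to 261 to 1442 CPM in NAc female water and 376 to 741 in NAc male water libraries. The part of cortex RNA in the NAc levels of the members was not tested. The order of NAc and VTA held for the water libraries only: the fentanyl libraries averaged 58.2 CPM in NAc and 70.7 in VTA, and VTA was then 0.24 higher in the fit (SE 0.17, adjusted p = 0.201).

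Kcnj9 followed nearly the same order. It averaged 259.7 ± 55.5 CPM in VBT, 239.8 ± 15.2 in S1, 189 ± 20.3 in PrL, 72.7 ± 20.2 in NAc and 70.7 ± 13.4 in VTA, with the n given for Kcnj3. No VTA library exceeded 97.9 CPM and no NAc library exceeded 116, whereas the lowest library of VBT, S1 or PrL stood at 141. PrL exceeded NAc by 1.49 (SE 0.12, log2, edgeR adjusted p = 4.40e-14), while VBT and S1 (adjusted p = 0.209) and NAc and VTA (adjusted p = 0.859) did not separate. Over the 48 water libraries the ranks of Kcnj3 and Kcnj9 went together with a Spearman's rho of 0.868, given as a description, since the points share regions and library totals.

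Kcnj6 had another order. It averaged 37.5 ± 3.92 CPM in S1 and 33.8 ± 4.67 in PrL, then 20.3 ± 4.34 in VTA, 14.6 ± 7.42 in NAc and 13.7 ± 3.20 in VBT. S1 and PrL did not separate (adjusted p = 0.594), PrL exceeded VTA by 0.84 (SE 0.19, log2, adjusted p = 0.000223), VTA exceeded NAc by 0.49 (SE 0.19, adjusted p = 0.0259; lost without replicate 3, 4 or 5 of every group, at +0.25, +0.51 and +0.45, and 1.07 in the fentanyl libraries), and NAc and VBT did not separate (adjusted p = 0.775). VBT thus had the highest mean of Kcnj9 and the lowest mean of Kcnj6.

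Kcnj5 was scarce throughout. It averaged 5.30 ± 1.21 CPM in VTA, where the lowest, median and highest libraries were at 3.25, 5.31 and 7.07, and 1.35 ± 0.70 in NAc, 1.28 ± 1.01 in VBT, 0.798 ± 0.340 in S1 and 0.0860 ± 0.0932 in PrL. VTA exceeded NAc by 2.03 (SE 0.30, log2, edgeR adjusted p = 1.18e-07) and S1 exceeded PrL by 3.33 (SE 0.43, adjusted p = 4.18e-08). The PrL value rests on 32 counts in all, 0 to 11 per library, against 109 to 252 per library in VTA. VBT female water replicate 3, at 3.84 CPM, lay inside the VTA range, so the libraries of these regions overlap.

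Levels of different subunits were compared per length, as CPM per kb of exon. Summed over the 4 subunits, GIRK transcript averaged 102 ± 8.17 CPM per kb in S1, 98.2 ± 20.0 in VBT, 81.8 ± 5.12 in PrL, 35.6 ± 12.7 in NAc and 31.3 ± 3.54 in VTA. Kcnj9 made up the largest mean share in every region, from 49.0% in NAc to 61.6% in VBT, and Kcnj3 came next with 35.5% in VTA to 44.9% in NAc. In some water libraries of NAc, PrL and VTA the Kcnj3 share was above the Kcnj9 share. Kcnj6 made up 8.52% ± 1.62 of the sum in VTA and 1.82% ± 0.145 in VBT, and the VBT libraries, at 1.46% to 1.95%, lay under every water library of the other regions, of which the lowest was at 3.39%. Kcnj5 made up 3.61% ± 0.727 in VTA, and no library there was under 2.46%, while the highest water library elsewhere was at 2.21%, in NAc. These shares are descriptions of RNA in whole punches and were not tested.

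**Figure D2:**
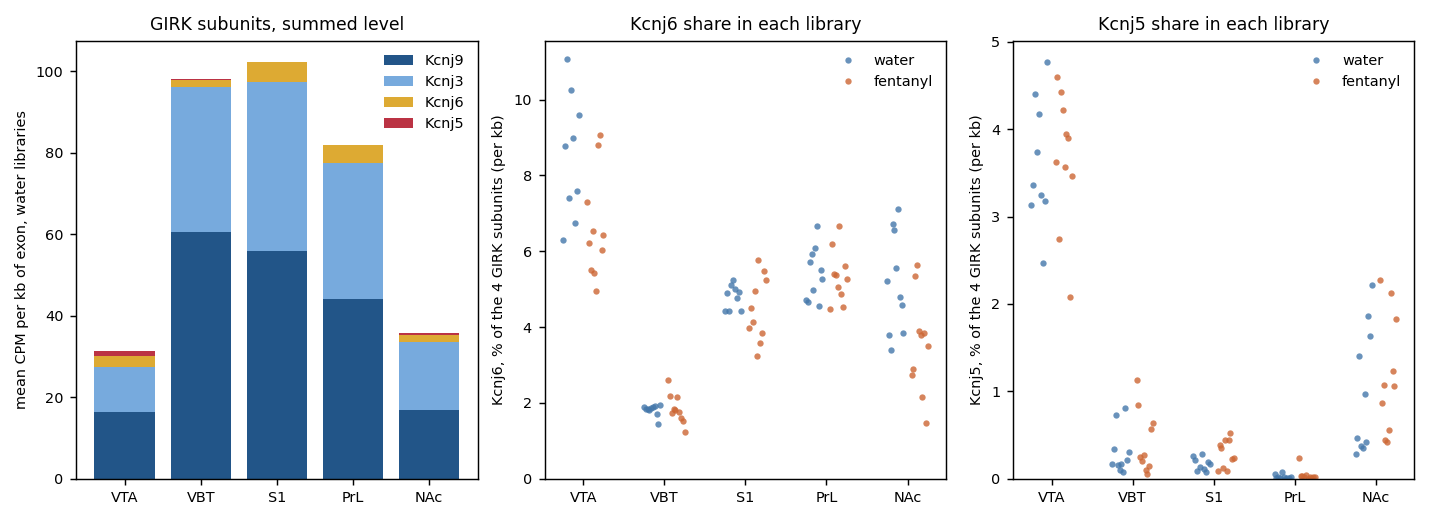
Left, mean level of each GIRK subunit per kb of exon in the water libraries of each region (stacked bars, from 0); middle and right, share of Kcnj6 and of Kcnj5 in the summed GIRK level of each library (percent), blue for water and orange for fentanyl. Among water libraries VBT has the lowest Kcnj6 shares and VTA the highest Kcnj5 shares; with fentanyl libraries included NAc reaches into both ranges, with Kcnj6 shares down to 1.47% and Kcnj5 shares up to 2.28%.

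Of the alpha subunits, Gnao1, the abundant Go subunit of neurons, averaged 801 ± 42.7 CPM in PrL, 799 ± 24.2 in NAc, 742 ± 39.9 in S1, 625.3 ± 31.6 in VTA and 579 ± 51.5 in VBT. S1 exceeded VTA by 0.33 (SE 0.05, log2, edgeR adjusted p = 2.38e-08), while PrL and NAc, NAc and S1, and VTA and VBT did not separate. PrL exceeded S1 by 0.12 (SE 0.04, adjusted p = 0.0305), a call lost without replicate 1, 2 or 4 of every group (adjusted p 0.0782 to 0.184). The call was also lost with the replicate number as a block (adjusted p = 0.0501) and without a filter on low counts (adjusted p = 0.0561). Gnai1, which inhibits adenylyl cyclase, was likewise highest in PrL at 265 ± 25.2 CPM, followed by 235 ± 21.9 in NAc, 218 ± 20.3 in S1, 183 ± 17.7 in VTA and 169 ± 11.9 in VBT. PrL exceeded NAc by 0.26 (SE 0.06, adjusted p = 0.000379) and S1 exceeded VTA by 0.34 (SE 0.06, adjusted p = 9.07e-06).

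Gnai2, another inhibitor of adenylyl cyclase and common in many cell types, ran the other way. It averaged 183 ± 18.6 CPM in VTA, 135 ± 17.0 in NAc, 134 ± 16.1 in VBT, 126 ± 8.07 in PrL and 111 ± 11.4 in S1. VTA exceeded NAc by 0.44 (SE 0.05, log2, adjusted p = 1.63e-09), although the libraries of the 2 regions overlapped (144 to 206 against 112 to 165 CPM). Per kb, Gnai2 was 26.5% ± 2.39 of the summed alpha subunits in VTA and 15.6% ± 1.61 in S1. Gnaz, the alpha subunit of Gz, which is insensitive to pertussis toxin, averaged 94.1 ± 8.31 CPM in PrL, 77.5 ± 5.71 in S1, 67.1 ± 3.66 in VTA, 65.5 ± 7.10 in NAc and 48.2 ± 6.06 in VBT. Among neighbours in its order only VTA and NAc failed to separate (adjusted p = 0.709).

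Arrb1, the more abundant arrestin, was low in thalamus: it averaged 213 ± 19.8 CPM in VBT, against 426 ± 18.7 in S1, 415 ± 26.7 in PrL, 388 ± 19.7 in VTA and 370.3 ± 19.7 in NAc. The highest VBT library, at 243 CPM, was below the lowest library of any other region, at 345, and NAc exceeded VBT by 0.66 (SE 0.04, log2, edgeR adjusted p = 8.74e-18). Arrb2, the isoform most studied in opioid tolerance, averaged 42.6 ± 4.69 CPM in VTA, 34.1 ± 2.35 in PrL, 32.5 ± 4.03 in NAc, 29.6 ± 2.97 in S1 and 25.7 ± 1.76 in VBT. VTA exceeded PrL by 0.23 (SE 0.06, adjusted p = 0.000469), but was 0.034 lower in the fentanyl libraries (adjusted p = 0.608). Per kb, Arrb2 made up 30.1% ± 1.67 of the arrestin pair in VTA, 32.2% ± 2.54 in VBT and 21.5% ± 1.83 in S1.

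The scaling mattered for small differences. The normalization of edgeR (TMM) set library sizes 0.09 larger than the gene totals behind CPM in VTA and 0.07 smaller in VBT on average (log2), which lowers VTA levels and raises VBT levels relative to CPM, and 5 of the 100 pairwise differences had opposite signs by mean CPM and in the fit. Only 1 of these was called: Gnai2 was 0.13 higher in VBT than in NAc in the fit (SE 0.05, adjusted p = 0.0293) and slightly lower by mean CPM. That call was lost with DESeq2's size factors (+0.10, adjusted p = 0.0692). It was also lost without the VBT pair with high striatal scores (+0.066, adjusted p = 0.255) and without replicate 2, 3 or 4 of every group. A mean count of at least 50, no filter on low counts and limma-voom ended it too (adjusted p 0.118 to 0.181). The other 4 were Kcnj5 and Kcnj6 between VBT and NAc, and Gnai1 and Gnao1 between VTA and VBT. Without the pair of VBT libraries with high striatal scores, 10 of 10 members (90.9% of all genes) and 77 of 100 differences (60.5% of all tests) passed. Without the pair of PrL libraries with high olfactory bulb scores the counts were 10 (90.9%) and 80 (60.3%). With VTA male water replicate 3 kept they were 7 and 48, and the shares over all genes were lower too, at 63.4% and 34.5%. In the fentanyl libraries of the same regions, tested in place of the water libraries, 10 members (92.8%) and 78 differences (64%) passed, of which 72 were among the 80 called in water and in the same direction. Of those 80, 8 did not pass in the fentanyl libraries, and 3 of the 8 had the opposite sign: Kcnj3 between VTA and NAc, and Arrb2 between VTA and each cortex.

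The genes most like each member across the 48 water libraries, by Spearman's rho of log2(CPM + 1) over 13629 genes, were named by rule and are given as a description. For the GIRK subunits they were Necab3 (0.937) and Snap25 (0.928) for Kcnj3, Extl3 (0.953) and Sel1l3 (0.949) for Kcnj9, Boc (0.929) and Ly6e (0.914) for Kcnj6, and Rfx4 (0.871) and Mkrn2 (0.867) for Kcnj5. For the alpha subunits they were Crip2 (0.947) and Ctxn1 (0.941) for Gnao1, Fam171b (0.910) and Samd8 (0.907) for Gnai1, Vat1 and Efs (both 0.872) for Gnai2, and Prkar1b (0.947) and Nwd2 (0.944) for Gnaz. For the arrestins they were Adam33 (0.887) and Col5a1 (0.878) for Arrb1, and BC029722 (0.911) and Elfn1 (0.892) for Arrb2.

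Fentanyl and water libraries were then compared within each region and sex. In 98 female and male tests, 4 passed an adjusted p under 0.05. They were in VTA males, where 22% of all genes passed, against 0% to 0.662% in the other 9 combinations of region and sex. Averaged over both sexes, 3 members passed in VTA (23.1% of all genes) and 1, Arrb2, in S1 (1.03%). In the tests of whether the male and the female difference themselves differed, 0 of 49 passed in edgeR (0% of all genes in each region), where 3 had an unadjusted p under 0.05 (2.59% to 15.2% of all genes by region). DESeq2 gave 0 (0% to 2.49%) and limma-voom 1 (0% to 6.68%). The female, male and averaged values of a region share their libraries and are not independent.

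**Figure D3:**
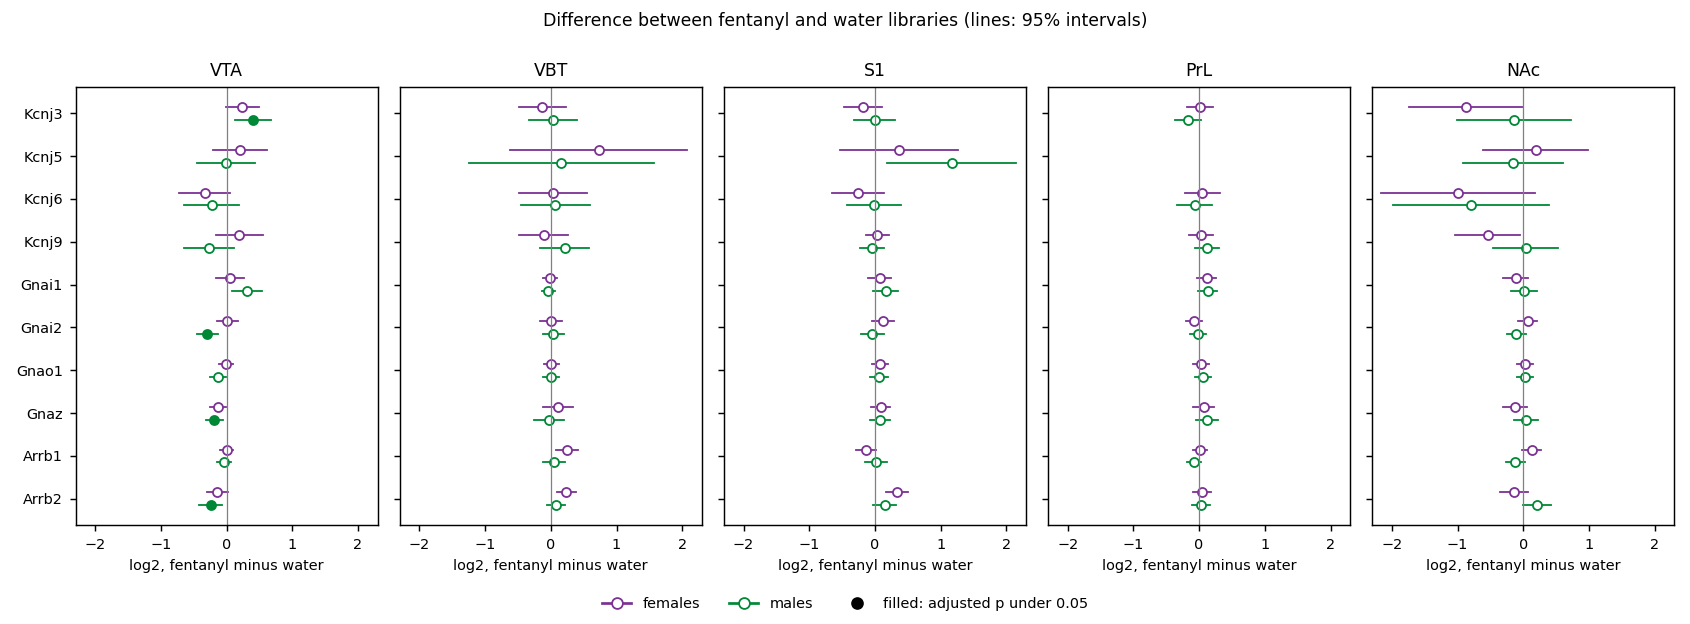
Log2 difference between fentanyl and water libraries (x axis) of each gene in females (purple) and males (green) of each region, with 95% intervals; filled points have an adjusted p under 0.05. The 4 filled points are Kcnj3, Gnai2, Gnaz and Arrb2 in VTA males, and Kcnj5 in PrL has no point because its counts were too low to test.

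In VTA males, Kcnj3 rose with fentanyl, and Gnai2, Gnaz and Arrb2 fell; none of these calls was kept once the GC content of genes was fitted, when 3.67% of all genes were called. These are 4 of 10 members, against 22% of all genes tested, and 6 of 10 had an unadjusted p under 0.05, against 34.7%. DESeq2 called 5 members (Gnai1 in addition) and 25.7% of all genes, and limma-voom 6 (Gnai1 and Gnao1 in addition) and 32.9%. Kcnj3 stood at 52.8, 56.0, 58.6 and 50.8 CPM in the water males and at 76.0, 60.1, 58.5, 75.0 and 81.3 in the fentanyl males, a difference of +0.40 (SE 0.13, log2, edgeR adjusted p = 0.0321). Of the fentanyl libraries 4 lay above all water libraries, and replicate 3 lay within their range. Gnai2 stood at 191, 179, 206 and 197 CPM in water and at 140.0, 186, 149.9, 129 and 163 in fentanyl, a difference of -0.29 (SE 0.08, adjusted p = 0.0118), with 1 fentanyl library inside the water range. Of the 4, only the Gnai2 call was kept in all 19 fits that left out 1 VTA library.

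Gnaz was at 70.2, 64.8, 68.8 and 72.8 CPM in water males and at 54.4, 64.6, 58.2, 53.1 and 66.1 in fentanyl males (-0.19, SE 0.06, adjusted p = 0.0312). Arrb2 was at 44.1, 39.9, 51.1 and 47.5 CPM in water and at 31.2, 39.5, 38.7, 36.7 and 42.2 in fentanyl (-0.24, SE 0.08, adjusted p = 0.0453). In both, all but 1 of the fentanyl libraries lay below the water range. Gnao1 (-0.13, SE 0.06, adjusted p = 0.11) was the 1 member of 10 whose groups did not overlap, as in 22.4% of all genes, with 509.9 to 616 CPM in fentanyl and 630.3 to 662 in water. Gnai1 differed by +0.31 (SE 0.11, adjusted p = 0.0502). The GIRK subunits other than Kcnj3 did not pass: Kcnj6 differed by -0.23 (SE 0.20), Kcnj9 by -0.26 (SE 0.18) and Kcnj5 by -0.013 (SE 0.21). Arrb1 differed by -0.038 (SE 0.051).

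Other settings changed which of these members passed in males. With exon length offsets, Gnaz and Arrb2 were lost and Gnai1 and Gnao1 passed (21% of all genes). With the share of reads off exons as a covariate, Arrb2 was lost and Gnao1 passed (27.9%), and with DESeq2's size factors Arrb2 was lost and Gnai1 passed (22.2%). Without a filter on low counts only Gnai2 passed (9.24%). With the replicate number entered as a block, Kcnj3 and Gnaz were lost and Gnai1 passed, as given in the last section. Leaving out 1 library also changed how many of these members passed in males. Without male fentanyl replicate 1 or 4, or male water replicate 1, 4 or 5, the count was 1 (Gnai2), and without male fentanyl replicate 3 it was 2 (Gnai2 and Kcnj3). Kcnj3 was also lost without male fentanyl replicate 5, so that it and Gnaz were each lost in 6 of 19 fits. Arrb2 was lost in 11 of 19, among them those without male fentanyl replicate 2, female fentanyl replicate 2 or 4, or female water replicate 2 or 5 (over the 19 fits, -0.29 to -0.18, adjusted p = 0.0300 to 0.162). Over all libraries left out singly, the count ranged from 1 to 5, and the share of all genes called from 13.3% to 23.6%. In the average, Arrb2 was lost without male water replicate 4, and without female water replicates 4 and 5 together only Gnaz passed (12.3% of all genes).

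In VTA females 0 of 10 members passed in edgeR, as did 0% of all genes, and 1 had an unadjusted p under 0.05 (12.7% of all genes); DESeq2 and limma-voom also gave 0. Kcnj3 differed there by +0.24 (SE 0.12, adjusted p = 0.418) and Gnai2 by 0.012 (SE 0.074, adjusted p = 0.965). Kcnj6 had the most negative female difference, -0.34 (SE 0.19, adjusted p = 0.463). The difference between the sexes was -0.31 for Gnai2 (SE 0.11, unadjusted p = 0.00983, adjusted p = 0.420) and did not pass; 0 of 10 passed, with 1 at an unadjusted p under 0.05 against 11.4% of all genes, and DESeq2 and limma-voom gave 0. Averaged over both sexes, 3 of 10 members passed, against 23.1% of all genes, and 5 had an unadjusted p under 0.05 (35.4% of all genes): Kcnj3 rose by 0.32 (SE 0.09, adjusted p = 0.0140), Gnaz fell by 0.16 (SE 0.04, adjusted p = 0.00937) and Arrb2 fell by 0.19 (SE 0.06, adjusted p = 0.0223).

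The VTA groups also differed in a property of the libraries. The log2 ratio of each gene to the VTA mean rose with the GC content of its exons in all 4 male water libraries (Spearman's rho over genes 0.53 to 0.65) and fell with it in all 5 male fentanyl libraries (-0.50 to -0.11). Female water replicates 4 and 5 had a rho of 0.66 and 0.54, and the other 8 female libraries were between -0.56 and 0.03. Kcnj3 and Gnai1, the 2 members with the lowest GC content (43.9% and 42.6%), had the 2 most positive differences in males, and the others had 48.2% to 57.2%. With offsets for GC content fitted per library, 0 of 10 members passed in males, against 3.67% of all genes, and 0 of 10 in the average, against 4.3%. In males Kcnj3 was +0.24 (SE 0.12, adjusted p = 0.286), Gnai2 -0.03 (SE 0.07, adjusted p = 0.866), Gnaz +0.01 (SE 0.06, adjusted p = 0.930) and Arrb2 -0.01 (SE 0.07, adjusted p = 0.964). In males the GC trend and the treatment separate the same libraries, so their parts in these differences cannot be told apart.

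**Figure D4:**
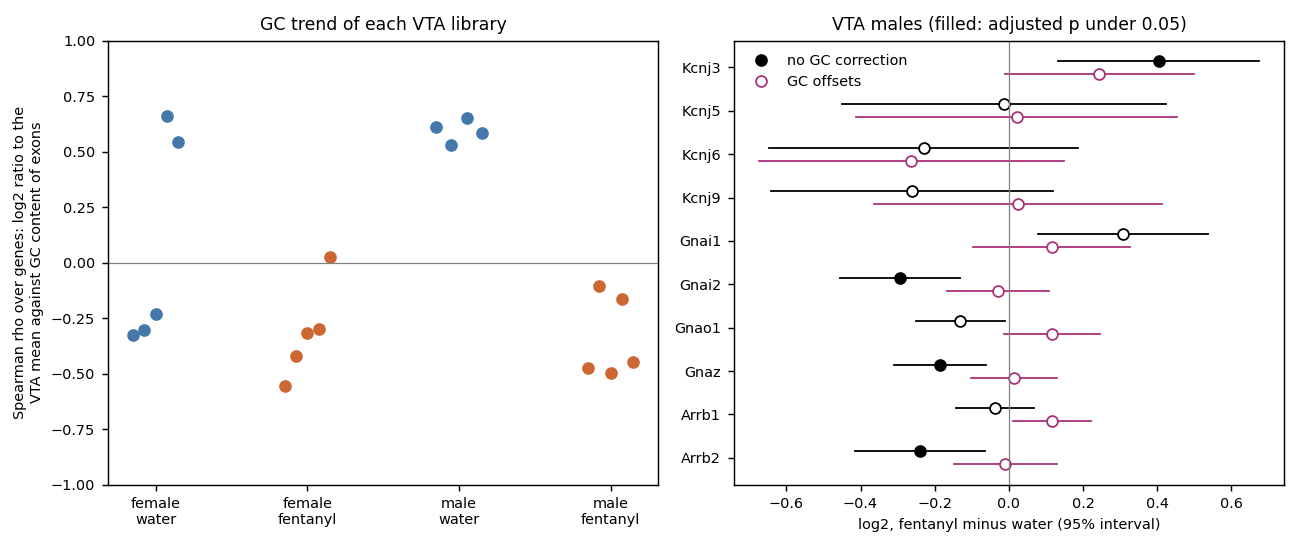
Left, rank correlation over genes between a library's log2 ratio to the VTA mean and the GC content of exons, for each VTA library by sex and treatment (y axis, -1 to 1; blue water, orange fentanyl); right, log2 difference between fentanyl and water in VTA males with 95% intervals, without (black) and with (magenta) GC offsets. The 4 male water libraries lie above 0.5, and no member passes once GC offsets are fitted.

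Marker levels also differed between the VTA groups, with few single markers called. Dopamine marker scores were 5.63 to 6.47 in male water and 3.94 to 6.07 in male fentanyl libraries, and with that score as a covariate 0 of 10 members passed in males (9.04% of all genes) and 2 in the average (13.6%). These were Kcnj3, at +0.18 (SE 0.06, adjusted p = 0.0472) against +0.32 without the covariate, and Gnaz, at -0.12 (SE 0.04, adjusted p = 0.0430). Choroid plexus markers summed to 9.53 to 1034 CPM in male water and 12.1 to 25.4 in male fentanyl, and 2 of 5 fell (median log2 difference -2.56). Kcnj3 was high in cortex and thalamus among the water libraries. Cortex markers summed to 9.47 to 16.5 CPM in male water and 12.7 to 73.7 in male fentanyl, and to 8.11 to 26.6 and 16.9 to 173 in females; 1 of 5 tested rose in the average. Thalamic markers summed to 294 to 554 CPM in male water and 296 to 766 in male fentanyl, and 1 of 7 rose. Blood markers summed to 74.0 to 248 CPM in male water and 82.6 to 490 in male fentanyl (all 5 with positive differences, none called), and to 79.6 to 330 and 105 to 572 in females. The part of choroid plexus, cortex, thalamic and blood RNA in the member results was not tested. The highest choroid plexus sum was in male water replicate 2, and without it 5 members passed in males (17.8% of all genes). With VTA male water replicate 3 kept, 0 members passed in males (0.216% of all genes) and 0 in the average (0.309%).

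In S1, Arrb2 was higher in fentanyl libraries. Averaged over both sexes it rose by 0.24 (SE 0.06, log2, edgeR adjusted p = 0.0457) and was the 1 member of 10 called, against 1.03% of all genes in either direction and 0.815% higher; 2 members had an unadjusted p under 0.05 (15.8% of all genes). Female water libraries stood at 29.0, 31.1, 31.1, 27.3 and 26.1 CPM and female fentanyl libraries at 35.7, 37.1, 36.0, 38.3 and 37.1, so that the groups did not overlap, as in 4.22% of all genes. The female difference alone was +0.34 (SE 0.08, unadjusted p = 0.000347, adjusted p = 0.0779). Male water libraries stood at 33.2, 25.7, 29.1 and 34.1 CPM and male fentanyl libraries at 34.7, 35.9, 37.7, 30.7 and 27.5, which overlap (+0.15, SE 0.09, adjusted p = 0.754).

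The averaged S1 call was lost in 15 of the 19 fits that left out 1 library, with adjusted p from 0.00780 to 0.112 and differences from +0.21 to +0.27; it was kept without female fentanyl replicate 3, male fentanyl replicate 4 or 5, or male water replicate 1. Entering the replicate number as a block ended this call. It was also lost with offsets for exon length (+0.22, adjusted p = 0.0559), with the share of reads off exons entered as a covariate (+0.24, adjusted p = 0.0791) and with the cortex marker score entered likewise (+0.22, adjusted p = 0.773). Those fits called 0.562%, 0.208% and 0% of all genes, and the difference itself was +0.20 to +0.27 over all alternatives. That score was 6.55 to 6.68 in female water and 6.62 to 6.91 in female fentanyl libraries, and 6.52 to 6.68 and 6.68 to 6.90 in males. Endothelial markers summed to 255 to 357 CPM in female water and 234 to 334 in female fentanyl, and to 287 to 354 and 238 to 328 in males; 1 of 6 fell in the average (median -0.19), and their part in the Arrb2 result was not tested.

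Among the other S1 members, Kcnj5 had the largest male difference, with 0.569, 0.406, 0.881 and 0.722 CPM in water and 0.388, 1.83, 2.49, 1.14 and 1.34 in fentanyl (+1.17, SE 0.47, adjusted p = 0.668). It did not pass, at 13 to 78 counts per library. In S1 females 0 of 10 members passed in edgeR (0.142% of all genes), 1 had an unadjusted p under 0.05 (13.9%), and DESeq2 and limma-voom each called Arrb2 (2.06% and 1.06% of all genes). In S1 males 0 of 10 passed in edgeR (0% of all genes), 1 had an unadjusted p under 0.05 (7.15%), and both other tools gave 0. The sex difference gave 0 of 10 in edgeR (0% of all genes), none at an unadjusted p under 0.05 (4.14%), and 0 by both other tools.

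In VBT, the arrestins of females were the members that stood out, without passing. Arrb2 was at 23.0, 22.6, 25.2, 24.9 and 26.8 CPM in female water libraries and at 28.0, 28.3, 28.7, 29.8 and 30.7 in female fentanyl libraries (+0.24, SE 0.07, unadjusted p = 0.00252, edgeR adjusted p = 0.424). It was the 1 member of 10 whose groups did not overlap, as in 2.06% of all genes. Arrb1 was at 218, 199.5, 243, 207 and 207 CPM in water and at 267, 271, 235, 245 and 267 in fentanyl (+0.25, SE 0.08, unadjusted p = 0.00507, adjusted p = 0.451). The male differences were +0.08 for Arrb2 (SE 0.07) and +0.05 for Arrb1 (SE 0.08), and neither passed. Choroid plexus markers reached 4526 CPM in 1 female water library, replicate 2, and at most 9.47 CPM in the female fentanyl libraries, and striatal markers 496 and 100.2 CPM. Without that library and male water replicate 3, the female differences were +0.19 for Arrb2 (adjusted p = 0.607) and +0.21 for Arrb1 (adjusted p = 0.633).

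Across the VBT contrasts (females, males, average, sex difference) edgeR called 0 of 10 members in each, and 0% of all genes; DESeq2 and limma-voom gave 0 as well. Unadjusted p-values under 0.05 numbered 2 for females (7.86% of all genes), 0 for males (8.7%), 2 for the average (8.49%) and 0 for the sex difference (8.03%). The GIRK subunits were wide: Kcnj9 differed by -0.11 (SE 0.18) in females and +0.21 (SE 0.18) in males, and Kcnj5 by +0.73 (SE 0.64) in females. Gnao1 was at 0.0088 (SE 0.056) in females and 0.0019 (SE 0.056) in males.

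In NAc, Kcnj6, Kcnj3 and Kcnj9 had lower means in fentanyl females, and none passed. Kcnj6 was at 23.9, 11.4, 5.46, 22.7 and 25.3 CPM in female water and at 3.20, 3.73, 13.4, 15.4 and 9.36 in female fentanyl libraries. In males it was at 11.6, 19.2, 10.2, 9.73 and 6.67 in water and at 10.1, 2.32, 9.26, 1.87 and 9.25 in fentanyl. The libraries ranged widely within each group, and the groups overlapped in both sexes. Averaged over both sexes the difference was -0.89 (SE 0.40, log2, unadjusted p = 0.0371, edgeR adjusted p = 0.383). In females, Kcnj3 differed by -0.87 (SE 0.41, adjusted p = 0.549) and Kcnj9 by -0.54 (SE 0.23, adjusted p = 0.544).

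Marker sums of neighbouring tissue also differed between these libraries. Cortex markers summed to 261 to 1442 CPM in female water and 56.0 to 864 in female fentanyl libraries, and all 6 markers had negative differences in females, with none called (median -1.04). Striatal markers summed to 1096 to 3014 and 2198 to 3251 CPM in females, with all 6 higher. In males, cortex markers summed to 376 to 741 CPM in water and 91.3 to 792 in fentanyl libraries, with 3 of 6 higher (median -0.05). Male striatal markers summed to 1689 to 2616 and 1645 to 3798 CPM, with all 6 higher. With the striatal score as a covariate the differences turned to +0.19 for Kcnj3 in females (SE 0.23), +0.05 for Kcnj9 in females (SE 0.13) and +0.01 for Kcnj6 in the average (SE 0.22). With the cortex score as a covariate they were -0.17 (SE 0.15), -0.14 (SE 0.08) and -0.45 (SE 0.15, unadjusted p = 0.00756, adjusted p = 0.450). Kcnj6 then passed in males (-0.80, SE 0.20, adjusted p = 0.0384), with 3.18% of all genes. Its male difference without that covariate was also -0.80.

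**Figure D5:**
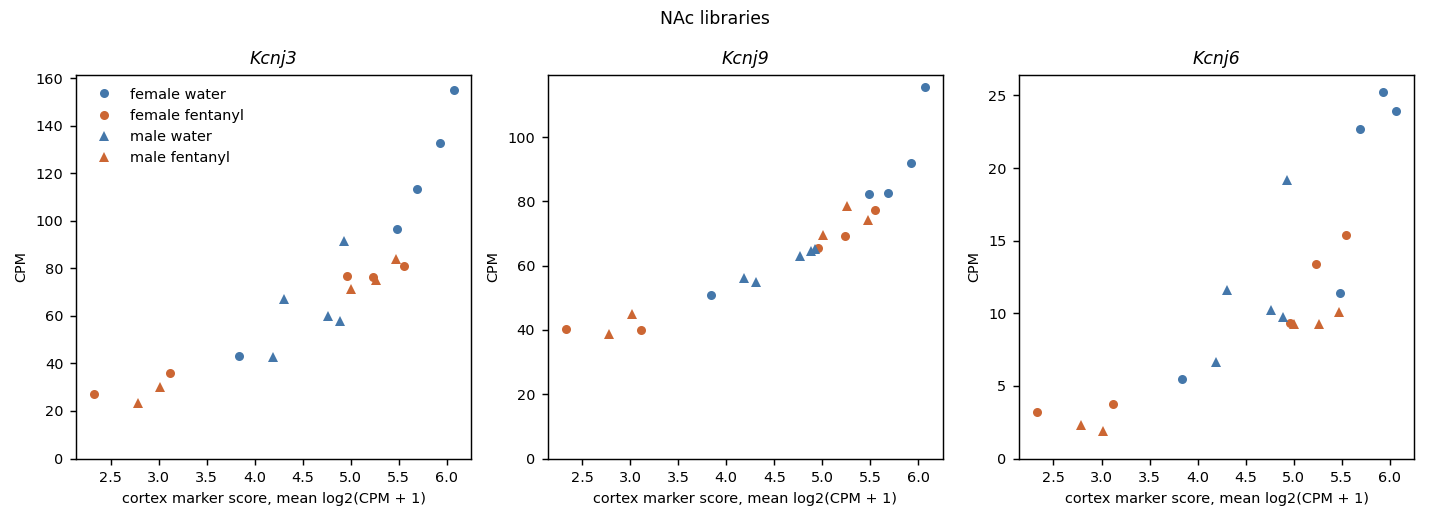
CPM of Kcnj3, Kcnj9 and Kcnj6 (y axes, from 0) in each NAc library against its cortex marker score, mean log2(CPM + 1) of 6 markers (x axis); blue water, orange fentanyl, circles females, triangles males. Libraries with higher cortex scores have higher levels of the 3 subunits over the 4 groups.

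Over all NAc members, 0 of 10 were called by edgeR in females (0% of all genes), males (0.662%), the average (0%) or the sex difference (0%). Unadjusted p-values under 0.05 numbered 2 for females (9.03% of all genes), 1 for males (17.6%), 1 for the average (12%) and 2 for the sex difference (15.2%); DESeq2 gave 0 throughout, and limma-voom 1, Arrb1 in the sex difference (-0.30, SE 0.09, adjusted p = 0.0411; 6.68% of all genes). The 2 sex differences were those of the arrestins: Arrb1 was +0.13 (SE 0.07) in females and -0.12 (SE 0.07) in males (difference -0.25, SE 0.10, adjusted p = 0.231), and Arrb2 was -0.14 (SE 0.10) and +0.21 (SE 0.10; difference +0.36, SE 0.15, adjusted p = 0.244). Gnao1 differed by +0.028 in females and +0.025 in males (SE 0.059 each).

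In PrL, 9 of the 10 members were tested, because Kcnj5 did not pass the filter on low counts there. EdgeR called 0 of 9 in females (0.021% of all genes), males (0%), the average (0.697%) or the sex difference (0%), and DESeq2 and limma-voom gave 0, as did edgeR without the pair of libraries with high olfactory bulb scores. Unadjusted p-values under 0.05 numbered 0 for females (9.53% of all genes), 0 for males (12%), 1 for the average (19.1%) and 0 for the sex difference (2.59%). That 1 was Gnai1, which averaged 283 CPM in fentanyl and 265 in water libraries (+0.12, SE 0.05, adjusted p = 0.183). The female and male differences of the 9 lay between -0.17 (Kcnj3 in males, SE 0.09) and +0.13 (Gnai1 in males, SE 0.07). Arrb2, which was called in S1, averaged 34.4 CPM in fentanyl and 34.1 in water libraries here (+0.037, SE 0.047).

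A list of 45 further genes of the same signalling route was read beside the members: other G protein subunits, receptor kinases, regulators of G protein signalling (RGS proteins, which speed GTP hydrolysis by the alpha subunit), chaperones and channel partners. In VTA males 13 of 45 passed, 7 higher and 6 lower (background 22%), and in the VTA average 11 of 45, 6 higher and 5 lower (background 23.1%). By rule, the higher genes named in males were Rgs7bp, which anchors an RGS complex at the membrane (+0.41, SE 0.09, adjusted p = 0.00535), and Ric8b, a chaperone of alpha subunits (+0.30, SE 0.07, adjusted p = 0.00688). The lower ones were Gpsm1, which binds GDP-loaded Gi alpha subunits (-0.45, SE 0.08, adjusted p = 0.00222), and Gnb2, a beta subunit (-0.49, SE 0.09, adjusted p = 0.00267). Gnb2 was at 137 to 165 CPM in water males and 90.4 to 125 in fentanyl males, without overlap, as in 22.4% of all genes. In the average the rule named Gnai3, a Gi alpha subunit (+0.22, SE 0.04, adjusted p = 0.00206), and Rgs7bp (+0.25, SE 0.06, adjusted p = 0.00860) as higher and Gpsm1 (-0.30, SE 0.05) and Gnb2 (-0.32, SE 0.06) as lower.

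With VTA male water replicate 3 kept, 1 of 45 passed in males (0.216% of all genes) and 0 in the average (0.309%). With GC offsets 1 of 45 passed in VTA males (3.67% of all genes), Grk2, a kinase of activated receptors (+0.19, SE 0.05, adjusted p = 0.0401), and 3 in the average (4.3% of all genes): Grk2 (+0.12, SE 0.03), Gng13 (-0.70, SE 0.18) and Gng5 (-0.43, SE 0.12). Gpsm1 and Gnb2 then stood at -0.11 each in males (SE 0.05 and 0.06). In NAc males 1 of 44 tested genes passed, Rgs10, an RGS protein common in microglia (+0.65, SE 0.14, edgeR adjusted p = 0.0375; background 0.662%), at 18.8 to 28.0 CPM in water and 29.7 to 39.8 in fentanyl males. With exon length offsets it did not pass (+0.59, SE 0.15, adjusted p = 0.0624). Microglia markers summed to 266 to 354 CPM in these water and 306 to 369.6 in these fentanyl males, with positive differences in 6 of 6 (median +0.20), and their part in the Rgs10 result was not tested. In the remaining contrasts, 0 listed genes passed in edgeR, with 0 to 12 of 44 or 45 at an unadjusted p under 0.05, beside 2.59% to 19.1% of all genes. The highest count, 12 of 44, was in the NAc average (12% of all genes), and the lowest, 0 of 44, in the PrL sex difference (2.59%).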

How the data were processed

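RNA of 10 ng per punch was made into SMART-Seq v4 libraries, per the labels' protocols, and the authors deposited raw read counts per Ensembl gene, 1 file per library. HTSeq and the build GRCm38 are named in the submitters' processing notes; aligner, annotation and strand setting are not given in the sources used here. Symbols, positions, exon lengths and GC contents came from GENCODE M21 (55154 of 55335 identifiers matched), and promoters from RefSeq (GRCm38.p6). The 5 lines of reads not assigned to a gene were kept out of totals.

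Each region was fitted with the quasi-likelihood test of edgeR 4.0.16 (R 4.3.3; TMM, filterByExpr, 4 groups), and the 48 water libraries in 1 fit over regions and sexes. The Benjamini-Hochberg adjustment ran over every gene tested in a fit, and an adjusted p under 0.05 counts as called. CPM is per total of gene counts, and a zero count allows up to 3 counts, covering counting error only. The fits were tested on simulated counts. Alternatives were DESeq2 1.42.0, limma-voom (limma 3.58.1), other filters, offsets, covariates and each library left out; some were chosen after seeing the data. The 10 members and the lists were chosen with earlier results of these data known. All members are named; of the 45 listed genes, the 2 higher and 2 lower with the smallest p in each contrast. Tables used Python 3.11.15, numpy 2.4.6 and pandas 2.3.3.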

Additional observations from a re-analysis of the deposited data

Results flagged for a closer look

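In groups of 4 or 5 libraries, 14 member values stood apart from the rest of their group, where chance gives about 10 in 200 groups (1 in 20). VBT male water replicate 3, the VBT library with the highest striatal score, accounted for 3 of them: Kcnj3 at 109 CPM (others 186 to 213), Gnai1 at 200.4 (166 to 170.0) and Gnao1 at 702 (557 to 599). In other VBT libraries, Kcnj5 was at 3.84 CPM in female water replicate 3 (others 0.540 to 1.19), Kcnj6 at 10.4 in female water replicate 2 (15.0 to 16.8) and at 20.3 in female fentanyl replicate 1 (13.4 to 14.6), and Gnao1 at 589 in female fentanyl replicate 2 (558 to 564).

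In PrL, both libraries with high olfactory bulb scores held 1 such value: Kcnj9 was at 158 CPM in female water replicate 5 (others 198 to 206) and Gnaz at 75.2 in male water replicate 3 (95 to 102). Kcnj5 was at 0.862 CPM in PrL female fentanyl replicate 1 (others 0.0888 to 0.188). The others were Kcnj3 at 242 CPM in S1 female water replicate 2 (201 to 213), Kcnj5 at 1.39 in NAc female water replicate 3 (0.778 to 0.859), Arrb1 at 348 in VTA male fentanyl replicate 4 (379 to 391) and Arrb1 at 382 in NAc female water replicate 5 (356 to 360.5).

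VTA male water replicate 3, which was left out of the reported comparisons, still held counts for 5 members: Kcnj3 at 309 CPM, Kcnj9 at 276, Gnai1 at 182, Gnao1 at 851 and Arrb1 at 139.7. The other members had no count there.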

How the results depend on the processing

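The count of VTA male members called, 4 in the reported fit, with 22% of all genes, was 5 under DESeq2's test (25.7%) or with a mean count of at least 50 (31.6%), 6 under limma-voom (32.9%), 1 without a filter on low counts (9.24%) and 0 with GC offsets (3.67%), with the dopamine score as a covariate (9.04%) or with VTA male water replicate 3 kept (0.216%). Leaving out single libraries gave 1 to 5 (13.3% to 23.6%). Exon length offsets, the percent outside exons and DESeq2's size factors kept the count at 4 with other members, as given above. The VTA average, 3 (23.1%), became 0 with GC offsets (4.3%), 0 with that library kept (0.309%) and 1 without female water replicates 4 and 5 (12.3%; 2 to 4 with single libraries left out, 18.2% to 26.3%). S1 females, 0, became 1 under DESeq2 (2.06%) and limma-voom (1.06%; 0 to 1 with single libraries left out), and the S1 average, 1, became 0 with the replicate block (0.567%), exon length offsets (0.562%), the percent outside exons (0.208%) or the cortex score (0%; 0 to 1 with single libraries left out). NAc males, 0, became 1 with the cortex score (3.18%), and the NAc sex difference, 0, became 1 under limma-voom (6.68%). Region pair calls, 80 (59.6% of all tests), became 48 with VTA male water replicate 3 kept (34.5%).

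Signs reversed with VTA male water replicate 3 kept in males for Kcnj3 (-0.32), Gnai2 (+0.027), Gnaz (+0.14) and Arrb2 (+0.081), in the average for Kcnj3 (-0.046) and Gnai2 (+0.017) and in the sex difference for Gnai2 (+0.020). They reversed with GC offsets in males for Gnao1 (+0.12) and Gnaz (+0.014) and in the average for Gnai2 (+0.037), and in NAc with the striatal score for Kcnj3 (+0.19), Kcnj9 (+0.047) and Kcnj6 (+0.012). The cause was not tested beyond these settings. Of 168 member contrasts with an unadjusted p of at least 0.05, 101 changed sign under at least 1 alternative. TMM scaling moved 4 of 50 regional CPM means by at least 1 SD.

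The pairing rule (every pair's r over 0.1) was met in 0 of 10 exposure and 0 of 20 region group pairs. Mean r of same-numbered libraries was -0.09 to 0.16 between exposure groups (14 of 48 correlated best with their own number) and -0.08 to 0.15 between regions (35 of 92), a hint from the data, not the design. With the replicate block 3 VTA male members passed (19.4% of all genes): Gnai2, Arrb2 and Gnai1, so that Kcnj3 and Gnaz did not. In the VTA average Gnai1 passed beside the 3 (21.2%), and the S1 average was 0 (Arrb2 +0.23, adjusted p = 0.0854). Depth limits Kcnj5 most, with 32 counts in all PrL water libraries.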
